A study of Homo sapiens with 11 samples.

Results

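A set of 8 mature microRNAs known from neurons and neuroendocrine cells was examined across 6 human tumour cell lines: hsa-miR-124-3p, hsa-miR-9-5p, hsa-miR-9-3p, hsa-miR-128-3p, hsa-miR-7-5p, hsa-miR-137, hsa-miR-153-3p and hsa-miR-375 (hsa, for human, is left out below). They were chosen by name, with earlier results of these data known, out of 2588 mature miRNAs listed. All entries with one of these 8 names were taken, and entries of the same name were summed. Small RNA was sequenced from parental cells without any knockdown or drug, in 2 libraries each of A-549 (lung adenocarcinoma), ES-2 (ovarian clear cell adenocarcinoma), MV3 (amelanotic melanoma), BE(2)-C (neuroblastoma, a tumour of the sympathetic nervous system) and Hep-G2 (hepatoblastoma) and in 1 library of PANC-1 (pancreatic ductal adenocarcinoma), which makes 11 libraries. The question put to the data was how BE(2)-C, the only neuroblastoma line, compared with the 5 other lines. Each group was a single cell line, so that a difference between groups is one between these lines and not between tumour types. For PANC-1, MV3, ES-2 and A-549, 50 ng of total RNA entered a NEXTflex library kit, whereas the libraries of Hep-G2 and BE(2)-C came from a service provider, Novogene. Preparation and cell line therefore cannot be told apart in any comparison of BE(2)-C with a NEXTflex line, and Hep-G2 is the only line that shares the preparation of BE(2)-C. Cells were harvested 48 h after seeding, with the exception of BE(2)-C, for which the protocol text gives 24 h and the sample description 48 h. The medium also differed for BE(2)-C.

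MicroRNAs are short RNAs, cut from hairpin precursors, that guide Argonaute proteins to messenger RNAs, mostly by pairing of the seed near their 5′ end, and thereby lower the output of these messages. Several are concentrated in the nervous system: miR-124 and miR-9 accompany the passage from neural progenitor to neuron, miR-128, miR-137 and miR-153 are enriched in brain, and miR-7 and miR-375 are typical of hormone-secreting cells such as pancreatic islet cells and of neuroendocrine tumours. Neuroblastoma arises from neural crest-derived sympathetic precursors, so that both neuronal and neuroendocrine miRNAs are of interest in BE(2)-C.

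Mature sequences of 7 of the 8 members were found in RefSeq (GRCh38.p14) and are shown 5′ to 3′. The members were grouped as known from neurons or neuroendocrine cells and not by sequence. Capitals mark the seed, bases 2 to 8.
hsa-miR-9-5p: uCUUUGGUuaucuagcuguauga
hsa-miR-9-3p: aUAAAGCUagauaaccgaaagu
hsa-miR-128-3p: uCACAGUGaaccggucucuuu
hsa-miR-7-5p: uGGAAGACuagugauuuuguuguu
hsa-miR-137: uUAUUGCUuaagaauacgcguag
hsa-miR-153-3p: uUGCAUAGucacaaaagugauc
hsa-miR-375: uUUGUUCGuucggcucgcguga
The 7 seeds were all different. MiR-137 and miR-375 are listed in RefSeq as miR-137-3p and miR-375-3p. Among the other mature miRNAs of RefSeq that were searched, only miR-216a-3p and miR-3681-3p had a seed of these 7 members, that of miR-128-3p. Neither exceeded 2.22 CPM as the mean of a line (CPM, reads of a miRNA per 1e+06 miRNA reads of its library). MiR-124-3p is named only, and miRNAs with its seed were not sought.

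The genes of the members lay at many places (GRCh38, GENCODE v44). MiR-9 has 3 hairpins, MIR9-1 at chr1:156420341-156420429, MIR9-2 at chr5:88666853-88666939 and MIR9-3 at chr15:89368017-89368106, each within an exon of a non-coding host (MIR9-1HG, LINC00461 and MIR9-3HG). MIR128-1 at chr2:135665397-135665478 and MIR128-2 at chr3:35744476-35744559 are intronic in the protein-coding genes R3HDM1 and ARPP21. MIR7-1 at chr9:83969748-83969857 overlaps an exon annotated as UTR of HNRNPK, MIR7-3 at chr19:4770670-4770779 sits in an intron of MIR7-3HG, and MIR7-2 at chr15:88611825-88611934 overlaps only MIR3529 on the opposite strand. MIR137 at chr1:98046070-98046171 lies in an exon of MIR137HG. MIR153-1 at chr2:219294111-219294200 and MIR153-2 at chr7:157574336-157574422 are intronic in PTPRN and PTPRN2, paralogs that encode proteins of secretory granules, and MIR375 at chr2:219001645-219001708 overlaps no other annotated gene.

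Depth and library composition set the precision of all values. Between 1173902 and 12137452 reads per library were assigned to miRNAs (median 2670030), so that a count of 0 allows up to 3 reads, or 2.56 CPM in the shallowest library and 0.247 CPM in the deepest. These floors and the 95% Wilson intervals given below cover counting error only. MiR-21-5p took 27.0% to 65.0% of the reads of the NEXTflex libraries and miR-148a-3p 72.6% and 75.3% of those of Hep-G2, whereas the leading miRNA of BE(2)-C, miR-381-3p, took 11.6% and 14.3%. A single dominant miRNA lowers the CPM of all others, and comparisons are therefore also given with TMM factors where these matter (trimmed mean of M-values, which align the bulk of miRNAs between libraries). The TMM factors were 0.166 and 0.217 for Hep-G2 and between 1.02 and 1.87 for the other 9 libraries. The libraries of BE(2)-C stood apart from each other, as described further below, and their values are given one by one, replicate 1 first. Bulk libraries cannot tell fewer cells with a miRNA from less of it per cell.

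Together the 8 members made up 9.26% (95% interval 9.24% to 9.28%) and 6.04% (6.02% to 6.06%) of the miRNA reads of the BE(2)-C libraries, but between 0.217% and 0.704% in the 9 other libraries. Most of this sum was miR-7-5p, with 74.2% and 59.3% of it in BE(2)-C, followed by miR-9-5p with 17.1% and 29.1%. The members fell into 3 kinds in BE(2)-C. MiR-9-5p, miR-7-5p and miR-375 were both abundant and above all 9 other libraries, miR-124-3p and miR-153-3p were above all 9 but scarce, and miR-9-3p, miR-137 and miR-128-3p were not above all 9. Both BE(2)-C libraries thus exceeded the 9 others for 5 of the 8 members, or 4 of the 7 that were tested below. Over all 546 miRNAs that reached a mean of 10 CPM in any line, which were those tested, the same held for 37.4%. Among the 4 members, miR-124-3p reached 10 CPM through BE(2)-C alone, so that its place above the other libraries was nearly fixed by the filter.

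**Figure D1:**
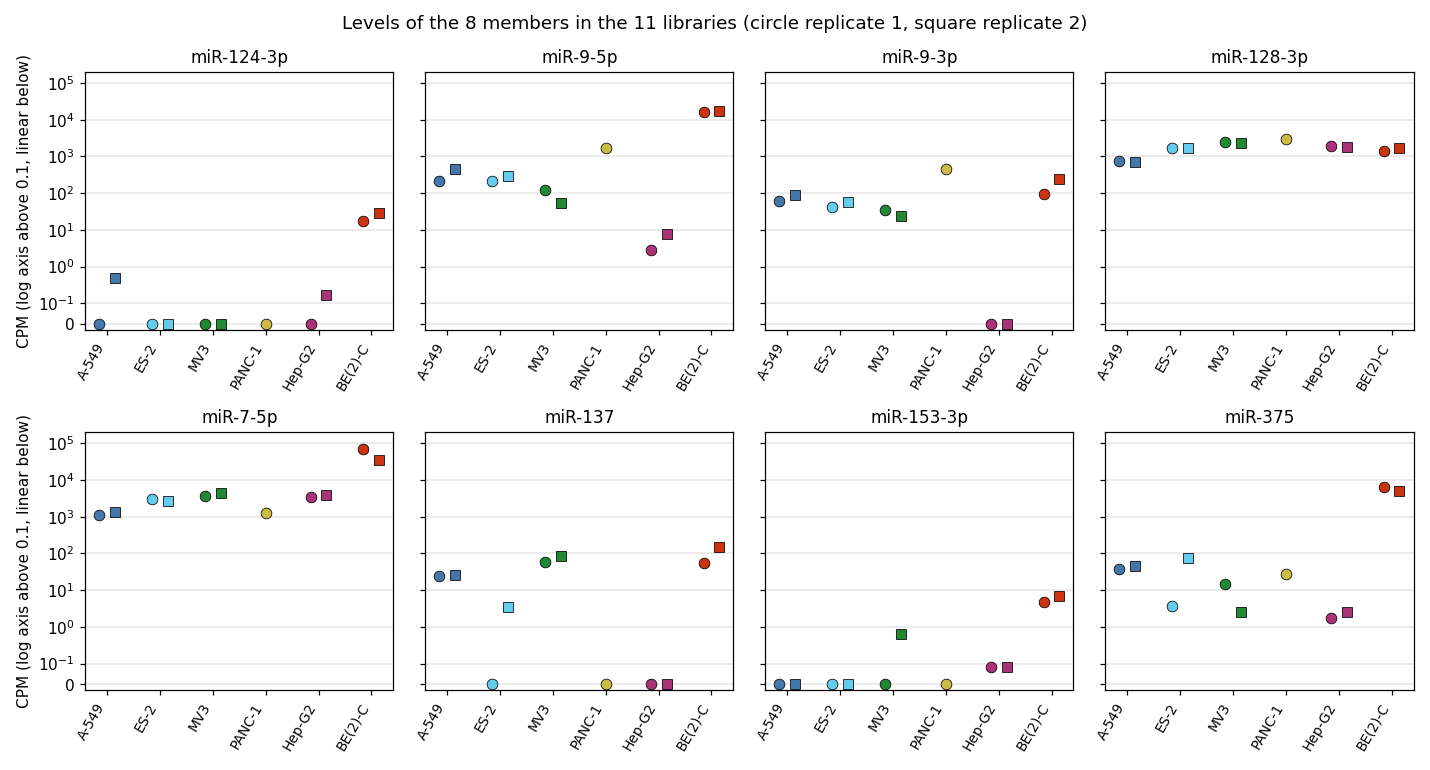
CPM of each member in each library, on an axis that is logarithmic above 0.1 and linear below, with lines on the x axis, circles for replicate 1 and squares for replicate 2 (PANC-1 has 1 library). MiR-9-5p, miR-7-5p and miR-375 sit higher in both BE(2)-C libraries (red) than elsewhere, miR-128-3p lies between 689 and 2938 CPM in all 11 libraries, and miR-124-3p reaches no more than 28.1 CPM.

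MiR-9-5p, which represses the neuronal gene silencer REST among other targets, was one of the 15 most abundant miRNAs of BE(2)-C, at ranks 15 and 14. It had 15875 and 17555 CPM in BE(2)-C (mean 16715 ± 1188, SD, n = 2) and 1739 CPM in PANC-1. Values were 209 and 453 CPM in A-549, 216 and 301 in ES-2, 123.5 and 52.9 in MV3, and 2.78 and 7.83 in Hep-G2. BE(2)-C was thus the highest line, PANC-1 the second and Hep-G2 the lowest, and among neighbours in this order only the libraries of A-549 and ES-2 overlapped. The lower BE(2)-C library was 9.13 times the PANC-1 value, the highest of the other lines. In limma fits of log2(CPM + 1) over all tested miRNAs, miR-9-5p was higher in BE(2)-C than in each other line, by 3.26 ± 0.69 (SE, log2) against PANC-1 (adjusted p = 0.00357, limma) up to 11.50 ± 0.56 against Hep-G2 (adjusted p = 5.83e-07, limma).

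MiR-9-3p, the opposite arm of the same hairpins and known to target the REST cofactor CoREST, did not set BE(2)-C apart in the same way. It had 96.7 and 248 CPM in BE(2)-C and 464 CPM in PANC-1. The values were 62.9 and 88.3 CPM in A-549, 41.5 and 56.6 in ES-2 and 35.8 and 23.9 in MV3, and no read was found in either Hep-G2 library, whose floors were 0.253 and 0.247 CPM. PANC-1 was thus the highest line and BE(2)-C the second. Against PANC-1 the log2 difference was -1.58 ± 0.57 (SE, adjusted p = 0.0372, limma), a call that was lost when any 1 of 8 libraries was left out (adjusted p between 0.0503 and 0.101, limma, against 0.00468 to 0.101 among all alternatives) and held without MV3 replicate 2 or BE(2)-C replicate 2. MiR-9-3p was higher in BE(2)-C than in MV3 by 2.36 ± 0.46 (SE, log2, adjusted p = 0.0019, limma) and than in ES-2 by 1.65 ± 0.46 (adjusted p = 0.0116, limma), the latter not called without ES-2 replicate 1 (adjusted p = 0.0675, limma, and 0.00142 to 0.935 among all alternatives) and down to 0.98 without BE(2)-C replicate 2. After quantile normalization neither was called, with 1.08 against MV3 and 0.04 against ES-2. Against A-549 the difference was 1.04 ± 0.46 (SE, log2) and did not pass (adjusted p = 0.0711, limma, and 0.00671 to 0.705 among all alternatives), with 1.72 without BE(2)-C replicate 1, where it passed, and -0.20 after quantile normalization. Relative to the Hep-G2 floor, BE(2)-C replicate 1 was at least 383-fold higher.

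The balance of the miR-9 arms differed accordingly. Reads of the 5p arm outnumbered those of the 3p arm by 164 and 70.9 to 1 in BE(2)-C, against 2.22 to 5.31 to 1 in the 7 NEXTflex libraries. As a share, the 5p arm made up 99.4% (95% interval 99.3% to 99.4%) and 98.6% (98.5% to 98.7%) of miR-9 reads in BE(2)-C. In the NEXTflex libraries it made up between 68.9% and 84.1%, with no upper bound above 87.1%. In Hep-G2, 33 and 95 reads of the 5p arm were found and 0 of the 3p arm, which puts the lower bounds of the 5p share at 89.6% and 96.1%. Both lines of the Novogene preparation thus had a 5p share above that of every NEXTflex library, and whether the arm balance belongs to the cells or to the preparation cannot be told apart.

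**Figure D2:**
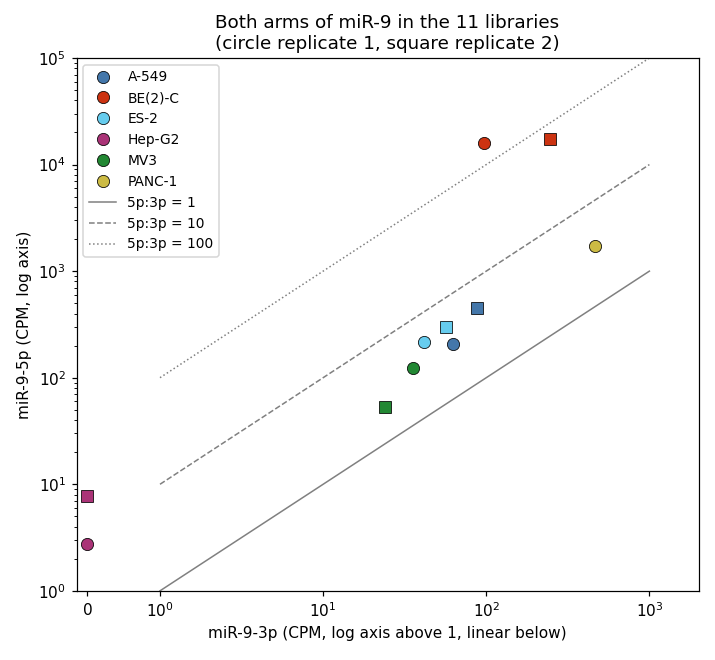
MiR-9-5p against miR-9-3p in CPM for each library (circles replicate 1, squares replicate 2), with lines at 5p to 3p ratios of 1, 10 and 100. The NEXTflex libraries lie between the ratios of 1 and 10, the BE(2)-C libraries near or above 70.9, and Hep-G2 has no 3p reads.

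MiR-124-3p, which silences non-neuronal messages including that of the splicing regulator PTBP1, was read almost only in BE(2)-C, and at a low level. BE(2)-C held 133 and 184 reads of it, or 17.7 and 28.1 CPM, at ranks 342 and 316 in these libraries. Of the 9 other libraries, A-549 replicate 2 had 1 read and Hep-G2 replicate 2 had 2 reads, and the others had none. Relative to libraries without a read, BE(2)-C replicate 1 was at least 6.92-fold higher than the floor of the shallowest one, MV3 replicate 1, and at least 70.0-fold higher than that of Hep-G2 replicate 1. As miR-124-3p passed the filter of 10 CPM through BE(2)-C alone, its fitted differences of 4.26 to 4.54 (log2) had to be large and are given as a description. DESeq2 on the reads did not call miR-124-3p against any single line (adjusted p from 0.0828 to 0.318, DESeq2). The other arm, miR-124-5p, was seen in no library but those of BE(2)-C, with 17 and 83 reads (2.26 and 12.7 CPM). The 3p arm made up 88.7% (95% interval 82.6% to 92.8%) and 68.9% (63.1% to 74.2%) of both, so that the replicates differed beyond counting error.

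MiR-153-3p, enriched in neurons and encoded within PTPRN and PTPRN2, was the scarcest member in BE(2)-C. It had 36 and 46 reads in BE(2)-C, or 4.79 and 7.03 CPM. Single reads occurred in MV3 replicate 2 (0.645 CPM) and in both Hep-G2 libraries, and no read in A-549, ES-2, PANC-1 and MV3 replicate 1. With no line mean of 10 CPM it was not tested. The lower BE(2)-C value was at least 1.87-fold the floor of MV3 replicate 1 and at least 15.6-fold that of PANC-1. The 5p arm showed another pattern, with 26 reads (2.67 CPM) in PANC-1, 1 read in BE(2)-C replicate 1 and none elsewhere.

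MiR-137, which acts in neural stem cells and at synapses, was found mainly in 3 lines. It had 54.9 and 153.4 CPM in BE(2)-C, 58.8 and 85.8 in MV3 and 23.6 and 26.2 in A-549. ES-2 had 0 and 3.49 CPM, the latter from 8 reads, and neither PANC-1 nor Hep-G2 had a read. The libraries of BE(2)-C and MV3 overlapped, and their difference did not pass (log2 0.37 ± 0.74, SE, adjusted p = 0.667, limma). Its sign depended on the BE(2)-C library, with -0.37 without replicate 2, and was also negative after quantile normalization (-0.98). The difference from A-549 was 1.84 ± 0.74 (SE, log2) and just missed the threshold (adjusted p = 0.052, limma). MiR-137 was higher in BE(2)-C than in ES-2, by 5.45 ± 0.74 (SE, log2, adjusted p = 0.000228, limma). Relative to the floors of PANC-1 and Hep-G2 replicate 1, BE(2)-C replicate 1 was at least 178-fold and 217-fold higher.

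MIR137 had the only close neighbour on its own strand that was read at high levels. Of the 15 hairpins that encode the members, 2 had another miRNA hairpin within 10 kb, a search made after the values had been seen. MIR2682 (chr1:98045242-98045351, GRCh38) lies 719 bases from MIR137. Its 5p product, miR-2682-5p, had 2492 and 1235 CPM in BE(2)-C, 18.7 and 34.2 in MV3, 16.5 and 8.74 in A-549, 3.61 and 4.79 in ES-2 and 0.103 in PANC-1, and none in Hep-G2. MiR-2682-5p was thus more abundant than miR-137 in BE(2)-C and less abundant in MV3 and A-549. In BE(2)-C the replicates went opposite ways, with miR-137 higher in replicate 2 and miR-2682-5p in replicate 1. The other arm, miR-2682-3p, was the miRNA whose line means correlated best with those of miR-137 (Pearson r = 0.963 over 6 lines), with 13.6 and 18.7 CPM in BE(2)-C and at most 16.8 CPM elsewhere. Near MIR7-2, miR-1179 had 6.38 and 5.05 CPM in BE(2)-C and at most 2.18 CPM elsewhere, and miR-3529-3p from the opposite strand of MIR7-2 had no read in any library.

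MiR-128-3p, a brain-enriched regulator of neuronal excitability, was the only tested member not called on CPM against the mean of the 5 other lines. It had 1446 and 1692 CPM in BE(2)-C. Values were 755 and 689 CPM in A-549, 1650 and 1677 in ES-2, 2519 and 2340 in MV3, 2938 in PANC-1 and 1908 and 1851 in Hep-G2. BE(2)-C was the fifth of 6 lines, and its libraries overlapped with those of ES-2. On CPM the difference from A-549 was 1.12 ± 0.14 (SE, log2) and passed (adjusted p = 0.000144, limma), but it was -0.22 after quantile normalization and missed the threshold in edgeR (0.42, adjusted p = 0.168, edgeR, and 6.6e-05 to 0.241 among all alternatives). MiR-128-3p was lower in BE(2)-C than in MV3 (-0.63 ± 0.14, SE, log2, adjusted p = 0.00325, limma) and PANC-1 (-0.91 ± 0.17, adjusted p = 0.00176, limma). Against the mean of the 5 lines the difference of -0.16 ± 0.11 (SE, log2) did not pass (adjusted p = 0.209, limma). With TMM factors it was -0.81 and passed (adjusted p = 0.00102, limma), and the difference from Hep-G2 went from -0.26 on CPM to -3.27 with TMM factors. In TMM fits without Hep-G2, added after seeing the data, it was -0.05 and did not pass (adjusted p = 0.693, limma, and 6.49e-12 to 0.82 among all alternatives). On CPM it was 0.03 against the mean of the 4 lines left without PANC-1, and -0.27 against the mean of the 5 lines without BE(2)-C replicate 2, where it passed. With TMM factors the difference from MV3 of -0.36 did not pass (adjusted p = 0.109, limma, and 0.000466 to 0.301 among all alternatives), and that from A-549 was 0.59. The passenger strands of its hairpins were rare. MiR-128-1-5p had 15.2 and 10.7 CPM in BE(2)-C and 0.103 to 7.41 CPM elsewhere. Against Hep-G2 the direction of miR-128-1-5p was set by the scaling, with 1.01 (log2) on CPM and -1.76 with TMM factors (adjusted p = 0.0145 and 0.0022, limma). As miR-128-1-5p passed the filter of 10 CPM through BE(2)-C alone, these differences are given as a description. MiR-128-2-5p had no read.

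Members with several hairpins have 1 mature sequence, so that their reads cannot be placed, and counts at the copies were nearly even except for miR-128-3p. For miR-7-5p the largest of 3 copies held at most 1.06 times, and for miR-9-5p at most 1.16 times, the even share in libraries with at least 100 reads. Of the miR-128-3p reads, the copy on chromosome 2 (MIR128-1) held 56.9% (95% interval 55.9% to 57.8%) and 58.8% (57.9% to 59.7%) in BE(2)-C and between 54.9% and 61.4% in the NEXTflex libraries. In Hep-G2 it held 65.1% (64.4% to 65.7%) and 65.5% (64.9% to 66.2%), above all others. How reads were distributed between copies is not given in the sources used here, so that no copy is taken as the source of the reads.

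MiR-7-5p, a miRNA of endocrine and neurosecretory cells that is bound by the circular RNA CDR1as, was the most abundant member in BE(2)-C. It had 68724 and 35823 CPM there (mean 52273 ± 23264, SD, n = 2), at ranks 5 and 6, which equals 6.87% (95% interval 6.85% to 6.89%) and 3.58% (3.57% to 3.60%) of the reads. The other lines ranged from 1080 and 1314 CPM in A-549 and 1274 in PANC-1 over 2971 and 2718 in ES-2 and 3490 and 3838 in Hep-G2 to 3730 and 4530 in MV3. The lower BE(2)-C library was 7.91 times the highest of the other libraries. On CPM the log2 differences lay between 3.59 ± 0.29 (SE, MV3, adjusted p = 1.26e-05, limma) and 5.38 ± 0.29 (A-549, adjusted p = 1.92e-06, limma). Against Hep-G2 the difference was 3.76 ± 0.29 (SE, log2, adjusted p = 7.48e-06, limma), a call that depended on scaling. MiR-7-5p was also the sixth most abundant miRNA in both Hep-G2 libraries. With TMM factors the log2 difference fell to 0.75 (adjusted p = 0.0752, limma), with edgeR on reads to 0.60 (adjusted p = 0.137, edgeR) and with quantile normalization to 0.15 (adjusted p = 0.386, limma), over a range of adjusted p from 1.72e-06 to 0.386 among all alternatives. Whether BE(2)-C holds more miR-7-5p than Hep-G2 is thus set by the scaling, whereas against each of the 4 NEXTflex lines miR-7-5p remained higher with TMM factors, by 3.87 to 5.49 (log2).

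The passenger strands of miR-7 stayed low. MiR-7-1-3p had 4.25 and 14.4 CPM in BE(2)-C, and in the other lines it ranged from 0.308 CPM in PANC-1 to 33.2 CPM in MV3. Its contrast with the mean of the 5 lines did not pass, with a CPM difference of 0.15 ± 0.44 (SE, log2, adjusted p = 0.763, limma) and a TMM difference of -0.52. MiR-7-2-3p was read in BE(2)-C only, with 3 and 11 reads. The mature strand of miR-7-2-3p differs from miR-7-1-3p at 4 positions counted from the 5′ end (A10C, G17A, A20U and U21A), so that their reads can be told apart.

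MiR-375, which marks pancreatic islet and neuroendocrine cells and restrains insulin secretion, showed the widest gap between BE(2)-C and the other lines. It had 6373 and 4866 CPM in BE(2)-C (mean 5619 ± 1066, SD, n = 2), at ranks 24 and 34. The 9 other libraries had between 1.77 and 73.6 CPM, with a median of 14.5. By line these were 37.1 and 46.1 CPM in A-549, 3.61 and 73.6 in ES-2, 14.5 and 2.58 in MV3, 26.8 in PANC-1 and 1.77 and 2.47 in Hep-G2. The lower BE(2)-C library was 66.1 times the highest other library. Log2 differences lay between 7.04 ± 1.20 (SE, A-549, adjusted p = 0.000931, limma) and 10.81 ± 1.20 (Hep-G2, adjusted p = 6.56e-05, limma), and against PANC-1, a line of the exocrine pancreas, the difference was 7.65 ± 1.48 (adjusted p = 0.00222, limma). The libraries of ES-2 disagreed, with 6 and 169 reads, and leaving out either moved the difference from ES-2 from 8.23 to 6.22 or 10.24 (log2).

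Most miRNAs differed between BE(2)-C and the other lines, so that the count of members called is given with that of all miRNAs. Of the 7 members tested, 6 were higher in BE(2)-C than the mean of the 5 other lines, among them miR-124-3p, which the filter let pass through BE(2)-C only. Of all 546 miRNAs tested, 56.6% were higher and 26.4% lower in BE(2)-C in this contrast. The median log2 difference of the 7 members was 4.43, with miR-375 at 8.66 ± 0.95, miR-9-5p at 6.84 ± 0.44, miR-124-3p at 4.47 ± 0.21, miR-7-5p at 4.43 ± 0.23, miR-137 at 4.15 ± 0.58, miR-9-3p at 2.15 ± 0.36 and miR-128-3p at -0.16 ± 0.11 (SE), while the median of all 546 was 1.41. With TMM factors the median of all fell to 0.80, and the members lay between 8.03 for miR-375 and -0.81 for miR-128-3p. The difference of miR-9-3p was 1.97 with TMM factors. It fell to 0.94 in TMM fits without Hep-G2, which had no read of it, and still passed. The share of calls that were higher in BE(2)-C was 68.2% on CPM, 61.2% with TMM factors and 44.9% after quantile normalization.

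Hep-G2 is the line to which BE(2)-C can be compared within a preparation. On CPM, 6 of 7 members were higher in BE(2)-C and none lower, where 74.7% of all miRNAs were higher. The median difference of all miRNAs was 2.79 (log2) on CPM and 0.49 with TMM factors, a shift that follows the factors of Hep-G2. The share of calls higher in BE(2)-C was 90.1%, 64.4% and 40.9% on CPM, with TMM factors and after quantile normalization. With TMM factors 5 members were higher (miR-9-5p by 8.73, miR-375 by 8.24, miR-9-3p by 6.68, miR-137 by 5.93 and miR-124-3p, which the filter had let pass through BE(2)-C only, by 3.56), where 41.4% of all miRNAs were higher. Another was lower (miR-128-3p), as were 22.9% of all, and miR-7-5p did not pass. On CPM, a fit of only the 4 Novogene libraries gave the 7 members the same calls as the fit of all libraries.

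Each NEXTflex line was then set against BE(2)-C. On CPM 5 of 7 members were higher in BE(2)-C than in A-549 (54.4% of all miRNAs were), 6 than in ES-2 (51.1%), 5 than in MV3 (45.6%) and 5 than in PANC-1 (43.0%). None was lower than in A-549 or ES-2, 1 than in MV3 (miR-128-3p, with 32.4% of all miRNAs) and 2 than in PANC-1 (miR-128-3p and miR-9-3p, with 28.2%). The share of all calls that were higher in BE(2)-C lay between 58.5% and 70.9% on CPM for these 4 lines, between 62.3% and 64.6% with TMM factors and between 44.7% and 51.1% after quantile normalization. MiR-9-5p and miR-375 were called higher against all 5 lines both on CPM and with TMM factors, and miR-7-5p on CPM alone. MiR-124-3p was so too, but it had passed the filter through BE(2)-C only and was not called by DESeq2 against any single line. The 5 contrasts share the BE(2)-C libraries and are not independent.

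**Figure D3:**
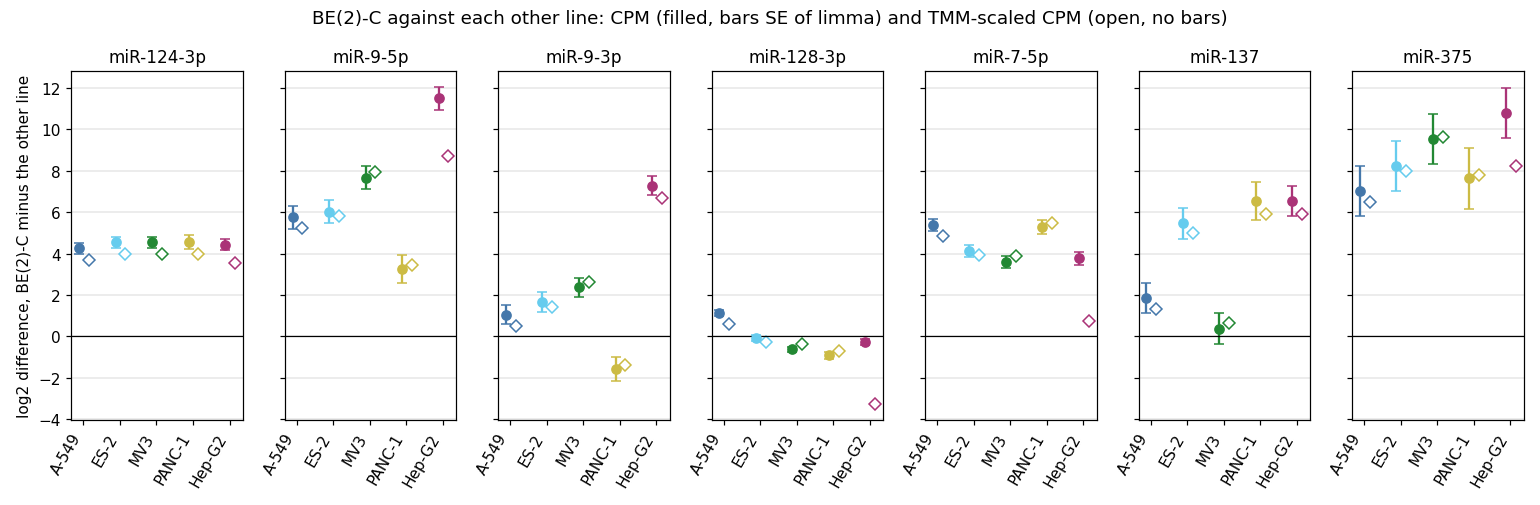
Log2 difference of BE(2)-C minus each other line for the 7 tested members, on log2(CPM + 1) with the SE of limma (filled circles) and with TMM factors (open diamonds, no bars). The values of miR-9-5p, miR-7-5p and miR-375 lie above 0 for all lines, those of miR-128-3p between -0.91 and 1.12 on CPM, and the scales part mostly for Hep-G2, where miR-7-5p goes from 3.76 to 0.75 and miR-128-3p from -0.26 to -3.27.

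Members also varied among the 4 NEXTflex lines, where neither BE(2)-C nor the preparation entered. MiR-9-5p, miR-9-3p, miR-128-3p, miR-7-5p and miR-137 differed across these lines in the F test (adjusted p = 0.013, 0.00232, 9.17e-05, 0.000788 and 0.00574, limma), whereas miR-375 did not pass (adjusted p = 0.488, limma). For miR-375 edgeR on the reads gave another call (adjusted p = 9.54e-06, edgeR, and up to 0.836 among all alternatives). In total 5 of the 6 members tested there passed, against 85.4% of 453 miRNAs. PANC-1 was the highest of the 4 lines for miR-9-5p, miR-9-3p and miR-128-3p, and MV3 for miR-7-5p and miR-137. As PANC-1 has 1 library, its values carry no replicate error of their own.

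The 2 BE(2)-C libraries stood apart for some members. Of 401 miRNAs with a mean of at least 10 CPM in BE(2)-C, 24.4% differed more than 2-fold between the replicates, and so did 2 of 7 members, miR-137 (2.79-fold) and miR-9-3p (2.56-fold), both higher in replicate 2. MiR-7-5p was 1.92-fold and miR-375 1.31-fold higher in replicate 1, while miR-9-5p (1.11-fold), miR-128-3p (1.17-fold) and miR-124-3p (1.59-fold) were higher in replicate 2. Some other miRNAs differed more than any member. MiR-122-5p, the liver miRNA, had 823 CPM in replicate 1 and 5.96 in replicate 2, miR-451a of red blood cells 299 and 46.0, and miR-184, listed below among the nervous system miRNAs, 543 and 10.1. They had the first, the fourth and the second largest gap of all, and miR-15b-3p had the third, with 123.52 and 5.66 CPM. On CPM, miR-9-5p, miR-7-5p and miR-375 each exceeded all other lines in either BE(2)-C library alone. What part miR-122-5p, miR-451a, miR-184 and miR-15b-3p had in the members' values was not tested.

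**Figure D4:**
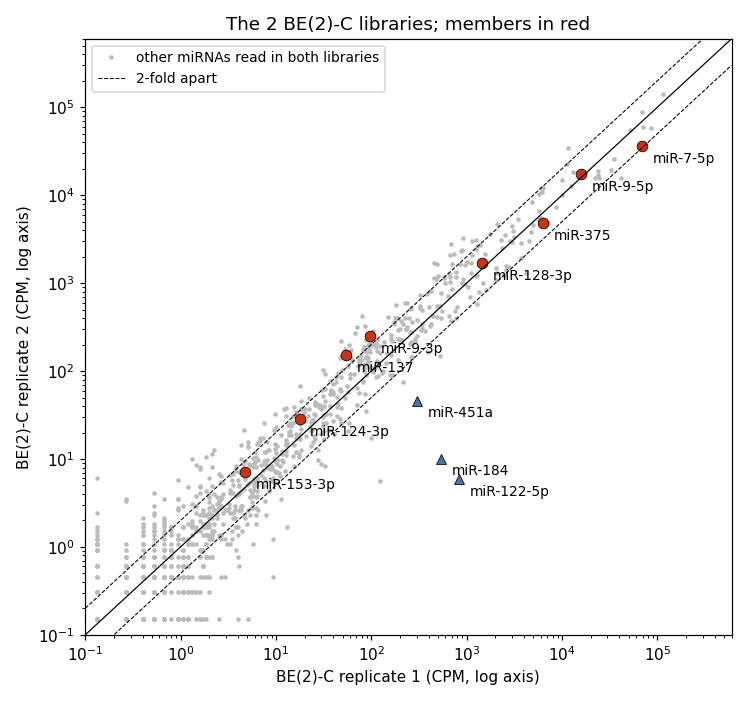
CPM of each miRNA read in both BE(2)-C libraries (log axes), with members in red, miR-122-5p, miR-184 and miR-451a as blue triangles, the solid line at equality and dashed lines 2-fold apart. MiR-137 and miR-9-3p lie just beyond the upper dashed line, the other members lie within, and the triangles lie below the lower dashed line.

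Marker miRNAs of other tissues were measured next to the members. In BE(2)-C the mesenchymal markers miR-143-3p, miR-145-5p and miR-199a-3p summed to 24986 and 21383 CPM, against 44.1 to 9995 CPM in the 9 other libraries, and all 3 were detected. This gap depended on scaling, as with TMM factors miR-143-3p had a mean of 14103 in BE(2)-C and 13931 in Hep-G2, and the differences from Hep-G2 of 0.016 for miR-143-3p and -0.27 for miR-145-5p were not called. Most of the CPM sum in BE(2)-C was miR-143-3p, with 23979 and 18824 CPM. MiR-199a-3p went another way, with a mean of 1625 CPM in BE(2)-C, below those of 4055 in ES-2 and 8424 in MV3. The muscle markers summed to 322 and 232 CPM and the erythroid markers to 712 and 371 CPM, the latter against 6.01 to 1356 CPM elsewhere and with miR-144-3p at 0. PANC-1 had 6858 CPM of muscle and 1356 CPM of erythroid markers. All of the latter was miR-486-5p, and neither miR-451a nor miR-144-3p had a read in PANC-1. Leukocyte markers summed to 5.58 and 1.68 CPM in BE(2)-C, against up to 480 CPM in ES-2, and epithelial ones to 26.5 and 27.8 CPM, against 14.5 to 83.4 CPM elsewhere. The melanocyte marker miR-211-5p had no read in any library, MV3 included. In Hep-G2 the hepatocyte markers summed to 64.0 and 50.0 CPM, below BE(2)-C replicate 1. Whether RNA of other cells contributed to any member was not tested.

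A further 20 miRNAs known from the nervous system are described next to the members. Like the members, they were chosen with earlier results of these data known, so that their counts are no independent check. Of the 20 miRNAs, 11 passed the filter. Against the mean of the 5 other lines 8 were higher in BE(2)-C, 1 was lower and 2 did not pass on CPM, and with TMM factors 7, 1 and 3. Over all miRNAs 56.6% were higher and 26.4% lower on CPM, and 49.6% and 31.5% with TMM factors. Among those higher, miR-129-2-3p and miR-204-5p passed the filter through BE(2)-C alone. Their median difference was 4.42 (log2) on CPM and 3.61 with TMM factors, against 1.41 and 0.80 for all miRNAs. This median was the value of miR-184, whose BE(2)-C libraries differed 53.8-fold, and without BE(2)-C replicate 1, a fit added after seeing the data, it fell to 2.32 on CPM and the count of those higher to 6. The most abundant was miR-218-5p, a miRNA of motor neurons, with 68764 and 88238 CPM in BE(2)-C, at or above the level of miR-7-5p there, and 6.73 to 1912 CPM elsewhere. MiR-134-5p, which acts in dendrites, had 6015 and 4755 CPM against 132 CPM in PANC-1, 82.0 and 83.0 in A-549 and at most 0.871 in the other libraries. MiR-129-5p had 3724 and 1941 CPM against 153.3 and 161 in MV3 and at most 18.3 in the other lines, and its partner miR-129-2-3p 57.0 and 57.8 against at most 9.68. MiR-204-5p, with 70.2 and 41.0 CPM, was also above all other libraries, which had at most 2.91 CPM.

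Other miRNAs of the list did not share this pattern. MiR-132-3p, which neurons induce on stimulation, had 36.7 and 32.3 CPM in BE(2)-C, but 318 and 307 CPM in A-549, 256 in PANC-1, 147 and 156 in MV3 and 89.6 and 103 in ES-2. It was lower in BE(2)-C than the mean of the 5 lines, with a CPM difference of -1.58 ± 0.15 (SE, log2, adjusted p = 2.64e-05, limma) and a TMM difference of -2.19. Against Hep-G2, with 9.34 and 11.04 CPM, it was higher on CPM (1.67 ± 0.19, SE, log2, adjusted p = 7.6e-05, limma) and lower with TMM factors (-1.21, adjusted p = 0.00114, limma), so that this direction was set by the scaling. MiR-132-5p was higher in BE(2)-C than the mean of the lines on CPM (1.44 ± 0.36, adjusted p = 0.00606, limma) but did not pass with TMM factors (0.80, adjusted p = 0.074, limma). MiR-138-5p, a regulator of dendritic spines, was higher than the mean of the lines (2.08 ± 0.22, SE, log2, adjusted p = 4.94e-05, limma). Yet BE(2)-C, with 59.2 and 83.3 CPM, lay below ES-2, with 235 and 199, and A-549, with 96.6 to 113.6. PANC-1 had 0.205 CPM of miR-138-5p and Hep-G2 no read. MiR-184 passed (4.42 ± 1.23, SE, log2, adjusted p = 0.0107, limma), but not without BE(2)-C replicate 1 (1.62, adjusted p = 0.0648, limma, and 0.000183 to 0.0648 over the fits without 1 library), and miR-138-1-3p and miR-212-5p did not. The other 9 of the 20 stayed below 10 CPM in the mean of every line, among them both arms of miR-338 and 3 of miR-219a, and miR-138-2-3p had no read.

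**Figure D5:**
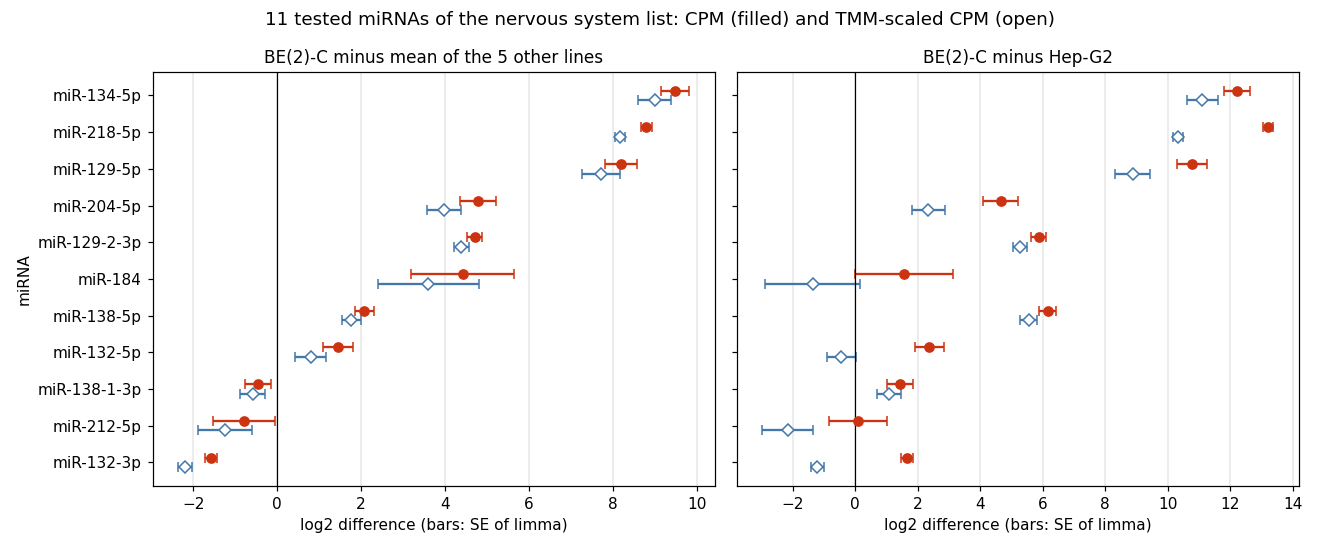
Log2 difference with the SE of limma of the 11 tested miRNAs of the nervous system list, BE(2)-C minus the mean of the 5 other lines (left) and minus Hep-G2 (right), on CPM (filled red) and with TMM factors (open blue). MiR-134-5p, miR-218-5p and miR-129-5p lie farthest to the right in both, and miR-132-3p is below 0 on the left and changes sides with the scaling on the right, from 1.67 to -1.21.

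MiRNAs with the profile most like that of each member were sought by Pearson correlation of the 6 line means of log2(CPM + 1), as a description. MiR-124-3p was closest to miR-323a-5p and miR-214-5p (r = 0.999 for both), which had 41.2 and 325 CPM in BE(2)-C and at most 0.375 CPM as a mean elsewhere. MiR-375 resembled miR-5100 (r = 0.957) and miR-345-5p (r = 0.953), and miR-7-5p resembled miR-548f-3p (r = 0.986) and miR-6515-3p (r = 0.984). All of these were highest in BE(2)-C. Except for miR-345-5p, they reached the filter of 10 CPM through BE(2)-C alone, so that this was nearly fixed in advance. MiR-124-3p passed the filter in the same way, so that its correlations rest on BE(2)-C against lines near 0. MiR-9-5p was closest to miR-502-3p (r = 0.955) and miR-9-3p to miR-5701 (r = 0.953). Both arms had miR-660-5p as the second match (r = 0.939 and 0.948), which was high in both PANC-1 and BE(2)-C with 199 and 195 CPM. MiR-128-3p was closest to miR-185-5p (r = 0.942), which was highest in PANC-1 with 505 CPM, and to miR-1304-3p (r = 0.866). After miR-2682-3p, named above, miR-137 was closest to miR-99b-5p (r = 0.959). Among the members themselves, correlations ranged from 0.923 for miR-124-3p and miR-375 to -0.34 for miR-128-3p and miR-137, with 0.879 for the 2 arms of miR-9. All these values rest on 6 points that differ in preparation and depth.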

How the data were processed

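The authors sequenced small RNA of 6 cell lines in 11 libraries. The submitters' processing notes name cutadapt 1.14, Bowtie2 2.3.2, SAMtools 1.5, featureCounts 1.5.3 and edgeR 3.30.3 with the human genome build hg38. The 6 deposited tables list 2813 rows, 1 per miRNA and genomic copy, for 2588 mature miRNAs. The table of PANC-1 holds CPM as deposited, whereas the other 5 hold a signal that the authors scaled per library, although CPM had been assumed when the tests were chosen. All values were whole multiples of 1 read (100% within a tolerance of 0.01). Rows of 1 name were summed and each library was rescaled to CPM.

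Members and lists were chosen with earlier results of these data known. Lines were compared with limma 3.58.1 (R 4.3.3) on log2(CPM + 1) for miRNAs with a mean of at least 10 CPM in any line, with a trended variance and Benjamini-Hochberg adjustment over all miRNAs, at a threshold of 0.05. BE(2)-C was set against the mean of the 5 others and against each, and the 4 NEXTflex lines against each other by an F test. SEs are of log2 differences. Differences on this scale understate those of low miRNAs. edgeR 4.0.16 and DESeq2 1.42.0 were run on the recovered reads, and edgeR called 400 miRNAs against the mean of the 5 lines, where limma called 453. A floor of 3 reads and 95% Wilson intervals were computed with scipy 1.17.1 (Python 3.11.15). The fits were also run on simulated reads in which all lines shared 1 profile apart from known changes in BE(2)-C outside the most abundant miRNAs. Shifts of library composition such as those of Hep-G2 were not covered by these simulated reads. All members were named, as were their other arms, listed nervous system miRNAs that passed the test or exceeded 100 CPM in a BE(2)-C library, and the 2 most alike miRNAs of each member by Pearson correlation of line means. The study's methods describe the libraries of a line as biological replicates. MiR-15b-3p and the neighbours of hairpins were named after their values were seen.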

Additional observations from a re-analysis of the deposited data

How the results depend on the processing

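Counts of miRNAs called kept within 1.5 times of the reported ones in 145 of 158 alternative fits, and the 13 others all changed the filter. Without a filter 723, 691, 596, 656, 653 and 645 miRNAs were called against the mean of the 5 lines, Hep-G2, PANC-1, MV3, ES-2 and A-549, and with a filter of 100 CPM 276, 285, 248, 269, 274 and 264, with 230 in the F test, since more or fewer miRNAs were tested. Of 1071 alternative values for single members 1017 kept their direction and side of the threshold, and 6 reversed, none of which passed. After quantile normalization the log2 difference was -0.20 for miR-9-3p and -0.22 for miR-128-3p against A-549, and -0.98 for miR-137 against MV3, and the cause was not tested. Leaving out 1 library gave miR-128-3p a range of -0.27 to 0.032 against the mean of the other lines (the latter without PANC-1, so over 4 lines) and of -0.20 to 0.025 against ES-2, and miR-137 a range of -0.37 to 1.10 against MV3. The call of miR-137 against A-549 was gained without either ES-2 library, PANC-1 or BE(2)-C replicate 1 (log2 difference 1.84, or 2.58 without the last), and that of miR-128-3p against Hep-G2 without BE(2)-C replicate 2 (-0.38).

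Equal replicate numbers did not pair the libraries, as deviations of 10 pairs of lines correlated between -0.053 and 0.109. With a replicate block 449 miRNAs were called against the mean of the 5 lines, and miR-137 passed against A-549 (adjusted p = 0.025, limma, and 0.00995 to 0.534 among all alternatives).

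Only Hep-G2 shared the preparation of BE(2)-C, PANC-1 had 1 library, and miRNAs near 3 reads could not be compared at this depth.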
